A study of Gallus gallus with 15 samples.

Results

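GAL (ENSGALG00000007047) encodes the precursor of galanin, and it is 1 gene of the 24356 in the count table. The gene was chosen by its identifier, with its wide spread among chicks incubated in white light already known, and its row was read in all 15 libraries. The hypothalamus of broiler chicks (Ross 308) at day of hatch (DOH) was profiled by bulk MARS-Seq, in which every RNA sample gets its own barcode, sequencing starts from the 3′ end of the transcript and a unique molecular identifier (UMI) marks each molecule. The chicks had been incubated under 1 of 4 lighting regimes, and the comparison asks what green monochromatic illumination (GMI) of the egg does to hypothalamic transcription. Control eggs were kept in the dark (n = 4), White eggs received polychromatic white light for the whole of incubation (n = 4), Green eggs received GMI for the whole of incubation (n = 3) and G3D eggs received GMI for the last 3 days of incubation (n = 4). Chicks of all 4 regimes were intact animals of the same commercial strain, given as male by the study, although the G3D labels do not state the sex. Each library holds RNA from 1 hemisphere of the hypothalamus of a chick. Trial, tray, litter and batch are not given for the libraries, and lights stood above trays behind light-proof dividers, so that regime and tray cannot be told apart.

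Galanin is a neuropeptide cleaved from a larger precursor that also yields galanin message-associated peptide, and it acts on G-protein-coupled galanin receptors. In the vertebrate hypothalamus it is made by several groups of neurons, and in mammals it is known for stimulating feeding, for the control of pituitary hormone release and for its place in the preoptic area, where it marks neurons of sleep and parental behaviour. It is often stored in the same neurons as other transmitters or peptides. In bulk tissue, fewer galanin neurons and less GAL RNA per neuron cannot be told apart.

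Total counts per library were between 3944530 and 9501555, and libraries of the same regime differed from each other by more than counting error (21 pairs, chi-square divided by its degrees of freedom at 12.1 to 28.5). Levels are given as CPM, the counts of a gene scaled to a common library size after TMM correction for composition. Gene symbols could be given only to identifiers that the study lists as changed genes, so that most markers of hypothalamus and of other tissues were not looked up. Of 11 hypothalamic markers listed, 1 had an identifier, SIX3, a homeobox gene of the anterior forebrain, and it was present at 111 to 245 CPM in the 15 libraries. None of the markers listed for pituitary, thalamus and midbrain, blood, astrocytes, oligodendrocytes or microglia had one.

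GAL was lowest in Control, spread widely in White and was high and even under GMI. In Control, GAL stood at 42.5 CPM in replicate 4, 42.1 in replicate 5, 27.4 in replicate 6 and 6.20 in replicate 8. Replicate 8 rested on 40 counts, with an exact Poisson interval (95%) from 4.43 to 8.45 CPM, and replicates 4, 5 and 6 rested on 155 to 394 counts. Control replicate 8 was therefore below the other Control libraries by more than counting error, and it was the lowest of the 15 libraries.

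In White, GAL stood at 154 CPM in replicate 1, 14.1 in replicate 3, 136 in replicate 6 and 33.7 in replicate 7. Replicates 1 and 6 were the highest of all 15 libraries, above the highest G3D library, while replicates 3 and 7 lay inside the range of Control. The counts behind them were 795, 103, 559 and 280, and the Poisson intervals (144 to 165, 11.5 to 17.1, 125 to 148 and 29.9 to 37.9 CPM) separated the high pair from the low pair. These intervals and the others here cover counting error only. The White libraries with high GAL were the shallower ones, with totals of 5056447 and 3944530 counts against 6731702 and 8077895 for replicates 3 and 7. In Control the order was the opposite, with high GAL in replicates 4 and 5, which had the larger totals (9464458 and 9501555 counts). The part of depth in the spread was not tested.

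In Green, GAL stood at 90.8 CPM in replicate 2, 104 in replicate 7 and 91.2 in replicate 9. In G3D it stood at 132 CPM in replicate 1, 124 in replicate 5, 121 in replicate 6 and 105 in replicate 7. All 7 GMI libraries were thus above all 4 Control libraries, and they lay between the high and the low White libraries.

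**Figure D1:**
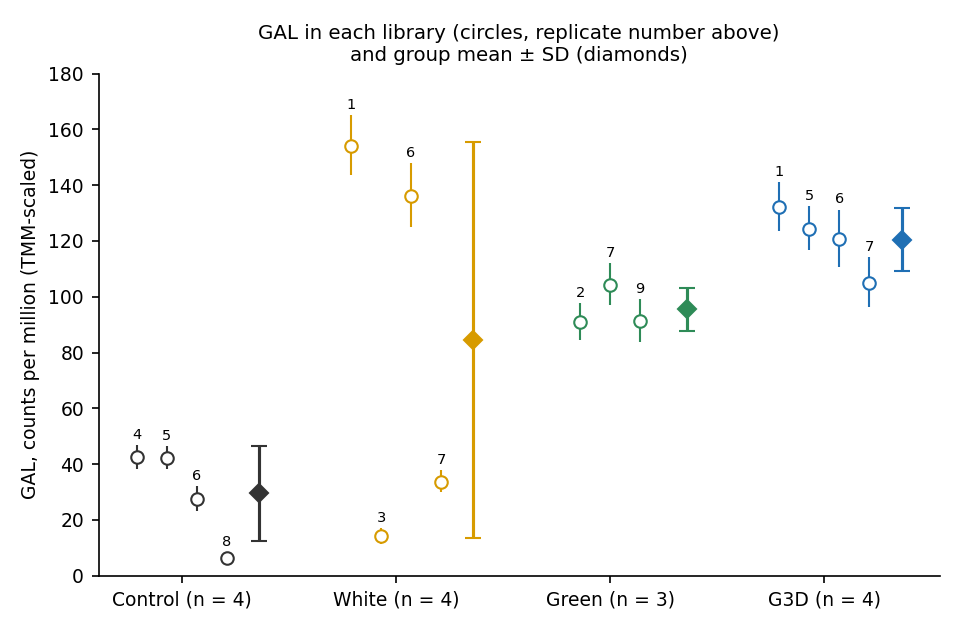
GAL in CPM (TMM-scaled) in each of the 15 libraries, by lighting regime: circles are single libraries with their exact Poisson intervals (95%) and replicate numbers, and diamonds are group means ± SD. The Control libraries lie between 6.20 and 42.5 CPM, the White libraries fall into 2 at 136 and 154 CPM and 2 at 14.1 and 33.7 CPM, and the Green and G3D libraries lie between 90.8 and 132 CPM.

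The mean level of GAL was 29.6 ± 17.1 CPM in Control (SD, n = 4), 84.5 ± 70.8 in White (SD, n = 4), 95.4 ± 7.70 in Green (SD, n = 3) and 120 ± 11.4 in G3D (SD, n = 4). In this order the means of White and Green were 2.86 and 3.23 times the Control mean, and that of G3D was 4.08 times. Differences were tested by the quasi-likelihood method of edgeR over all 15 libraries, with p-values adjusted over 10475 genes (padj), and separately with a two-sided exact permutation test on log2 CPM (prior count of 2).

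GAL did not pass the padj threshold of 0.05 in any of the 6 comparisons. For G3D against Control, GAL had a log2 fold change of 2.01 (SE 0.69, 95% interval 0.51 to 3.51), with an edgeR p of 0.0131 and a padj of 0.215. That p ranked 633 of the 10475 genes tested, and 0.0955% of genes (10) passed the threshold in this comparison. The exact permutation test gave p = 0.0286, the smallest that 4 against 4 libraries allow, since the ranges of the regimes did not overlap. Every G3D library lay above every Control library in 3.72% of all genes tested, GAL included. DESeq2 gave a log2 fold change of 2.03 and a padj of 0.0626, the lowest of any setting tried. It is the tool of the study, but here 1 fit held all 15 libraries, and the pairwise comparisons of the study were not rerun with it. DESeq2 was given every gene of the count table and applied its own filter. Its padj and its counts of genes called therefore do not rest on the same 10475 genes.

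For Green against Control, the log2 fold change of GAL was 1.68 (SE 0.72, 95% interval 0.11 to 3.25), with an edgeR p of 0.0384 and a padj of 0.664. All 3 Green libraries lay above all 4 Control libraries, as in 4.9% of all genes tested, and the exact permutation p was 0.0571, the smallest that 3 against 4 libraries allow. With edgeR, 0% of genes passed the padj threshold in this comparison (0 of 10475), and 750 had an unadjusted edgeR p under 0.05. DESeq2, with its own filter, called 22 genes.

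For White against Control, the log2 fold change of GAL was 1.48 (SE 0.68, 95% interval -0.01 to 2.98), with an edgeR p of 0.0511 and a padj of 0.917. The regimes overlapped, and the exact permutation p was 0.257. With limma-voom the value was 0.99 (SE 0.62, padj = 0.863). Here too 0% of genes passed the padj threshold with edgeR, against 8 genes with DESeq2, and 569 had an unadjusted edgeR p under 0.05.

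Compared with each other, White, Green and G3D did not pass the padj threshold for GAL in the edgeR fit. Its estimate of the spread for GAL is shared by all 4 regimes. G3D against Green gave a log2 fold change of 0.34 (SE 0.71, 95% interval -1.22 to 1.89, edgeR padj = 0.999). With only these 2 regimes in the fit, whose libraries were close together, the same difference was 0.34 with an SE of 0.13, an edgeR p of 0.0179 and a padj of 0.9995 over all genes. Every G3D library lay above every Green library after TMM scaling (2.39% of all genes tested), by 105 CPM against 104 at the closest, with an exact permutation p of 0.0571, and the ranges overlapped when libraries were scaled by their totals alone. No gene passed the padj threshold in this comparison (0% with edgeR, against 2 genes with DESeq2), and 387 had an unadjusted p under 0.05. Green against White gave 0.19 (SE 0.71, 95% interval -1.36 to 1.74, edgeR padj = 0.932), where 0.22% of genes passed, and G3D against White gave 0.53 (SE 0.66, 95% interval -0.92 to 1.97, edgeR padj = 0.674), where 4.17% passed. The exact permutation p was 0.571 and 0.429. With limma-voom these 2 values were 0.93 and 1.27, with a limma-voom padj of 0.42 and 0.147 and an unadjusted p of 0.0247 in the latter. The direction of GAL in Green against White turned when White replicate 3 or White replicate 7 was left out, to -0.17 and -0.08.

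**Figure D2:**
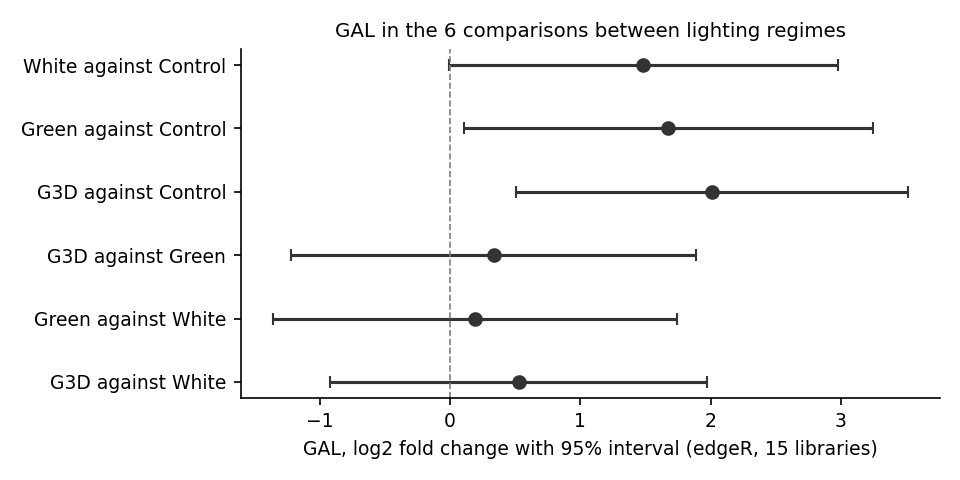
Log2 fold change of GAL in the 6 comparisons between lighting regimes (points) with 95% intervals (bars) from edgeR on 15 libraries; the dashed line marks no difference. The intervals of Green and G3D against Control start at 0.11 and 0.51, that of White against Control starts at -0.01, and the other 3 span 0.

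The spread of GAL between chicks of the same regime set the width of these intervals. The dispersion that edgeR estimated for GAL over all 15 libraries was 0.407, where the trend for genes of its abundance was 0.031, which as biological coefficients of variation is 0.638 against 0.176. By regime, the SD of GAL log2 CPM was 1.29 in Control, 1.65 in White, 0.11 in Green and 0.14 in G3D, against a median over all genes of 0.31, 0.34, 0.28 and 0.35. The same SD exceeded that of 98.3% of genes in Control and 99.3% of genes in White. In Green and G3D it exceeded that of 15.6% and 12.7% of genes. Among 1253 genes within 0.5 log2 units of its mean level over the 15 libraries, 99.8% had a smaller SD than GAL in White. This share was also 99.8% in Control, and it was 26.3% in Green and 23.9% in G3D. In linear terms, the highest White library was 11.0 times the lowest, and the highest G3D library was 1.26 times the lowest. Control replicate 8 carried most of the Control spread, and without it the SD there was 0.36. In White, leaving out each library in turn kept the SD between 1.21 and 1.93. The wide spread in White was known when GAL was chosen, so its place among all genes is a description and not a finding. Whether the regimes differ in spread was not tested, for this reason and since an SD over 3 or 4 chicks is itself imprecise.

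Of 35 neuropeptide genes listed, 7 had an identifier: GAL, AGRP (agouti-related peptide, an antagonist of melanocortin receptors that promotes feeding), SST (somatostatin, which restrains growth hormone release), VIP (vasoactive intestinal peptide, in birds a releaser of prolactin), ADCYAP1 (PACAP, an activator of adenylate cyclase), TAC1 (the precursor of substance P and neurokinin A) and UCN3 (urocortin 3, a ligand of the type 2 CRH receptor). The White SD of log2 CPM was 3.22 for AGRP and 1.36 for UCN3, both wide beside the median gene as GAL was. It was 0.27 for SST, 0.16 for VIP, 0.33 for ADCYAP1 and 0.33 for TAC1, all at or below the median of 0.34. Among genes within 0.5 log2 units of their own mean level, however, these genes did not stand alike. There the White SD of SST, ADCYAP1 and TAC1 exceeded that of 87.3%, 87.5% and 87.9% of genes. For VIP this share was 39.98%. In log2 units none of these 4 spread as far in White as GAL. In G3D the SD of log2 CPM was 0.14 for GAL, 0.06 for UCN3, 0.04 for VIP, 0.07 for ADCYAP1 and 0.07 for TAC1. For SST it was 0.15 and for AGRP 2.60. A small SD in G3D was thus not particular to GAL.

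**Figure D3:**
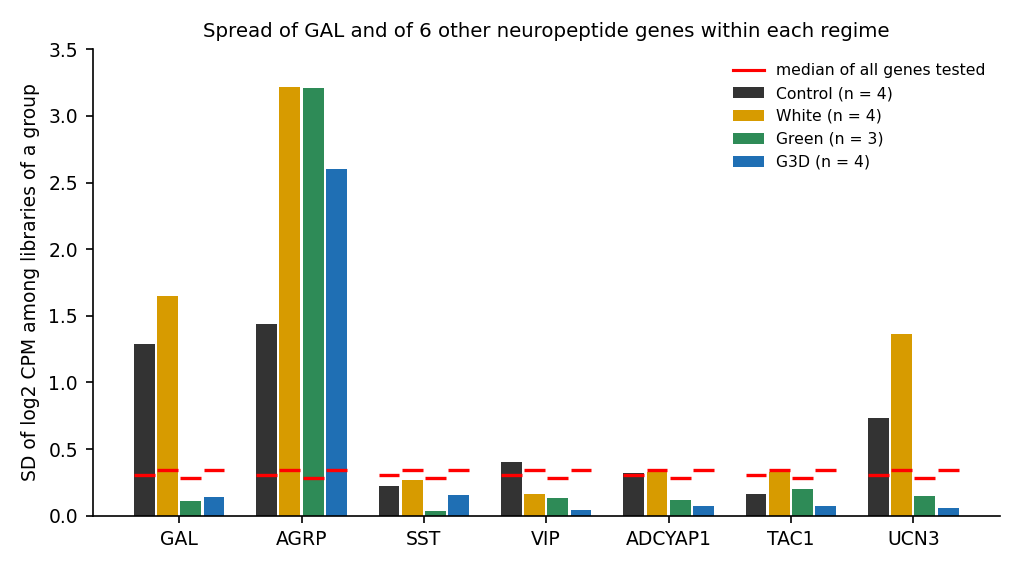
SD of log2 CPM among the libraries of each lighting regime for GAL and 6 other neuropeptide genes (bars), with the median SD over all genes tested in that regime (red lines). GAL has an SD of 1.29 in Control and 1.65 in White and of 0.11 and 0.14 in Green and G3D. UCN3 likewise has 0.73 in Control and 1.36 in White and 0.15 and 0.06 in Green and G3D. AGRP is wide in all 4 regimes, and SST, VIP, ADCYAP1 and TAC1 stay near or below the red lines in White.

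The other peptide genes shared the high White pair of GAL, but none had its full order of the White libraries. UCN3 in White stood at 6.98 CPM in replicate 1, 1.09 in replicate 3, 12.4 in replicate 6 and 5.66 in replicate 7, from 8 to 51 counts. AGRP in White stood at 33.3 CPM in replicate 1, 0.41 in replicate 3 and 10.5 in replicate 6, and it had 0 counts in replicate 7. Both genes were highest in replicates 1 and 6, the White libraries with high GAL. For UCN3, however, replicate 7 was close to replicate 1 at these low counts. On the log2 scale it stood 0.18 above the White mean of UCN3, with replicate 3 alone below, unlike the split of GAL.

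TAC1 in White stood at 203, 144, 188 and 124 CPM in replicates 1, 3, 6 and 7. In the same order, SST stood at 943, 769, 1021 and 678 CPM and ADCYAP1 at 182, 132, 208 and 133 CPM. For VIP the values were 129, 115, 116 and 98.0 CPM, with replicates 3 and 6 nearly equal. Replicates 1 and 6 were thus the 2 highest White libraries for GAL and for each of the other 6 peptide genes, with 11.0-fold between highest and lowest for GAL and 1.32-fold for VIP. This order of the White libraries was common: replicates 1 and 6 both stood above replicates 3 and 7 in 21.6% of the 10474 other genes tested and both stood below them in 20.9%. Among the 567 other genes with a symbol, from which all genes named here by symbol come, these shares were 22.6% and 42.2%. The lowest White library was replicate 3 for GAL, UCN3 and ADCYAP1 and replicate 7 for AGRP, SST, VIP and TAC1.

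The same replicates were also the highest in White for SIX3 (193 and 205 CPM, against 114 and 130 in replicates 3 and 7) and for CAMK2A, which encodes a subunit of a calcium-dependent kinase of synapses (0.56 and 0.43 above its White mean on the log2 scale, against 0.65 and 0.34 below it). The neuronal markers with an identifier, 3 of 6 listed, were ordered otherwise and not alike. White replicate 3, the lowest White library for GAL, was highest for GAD1, which encodes an enzyme of GABA synthesis (194 CPM), and for SNAP25, which encodes a protein of synaptic vesicle fusion (1168 CPM). GAD2, which encodes the other such enzyme, stood at 13.0, 18.0, 25.8 and 19.7 CPM in replicates 1, 3, 6 and 7, so that the high-GAL pair held both its lowest and its highest value. The part of the neuronal share of the tissue in the spread of GAL was not tested. SIX3 marks a region within the forebrain, and the part of the dissected region in the spread of GAL was not tested.

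**Figure D4:**
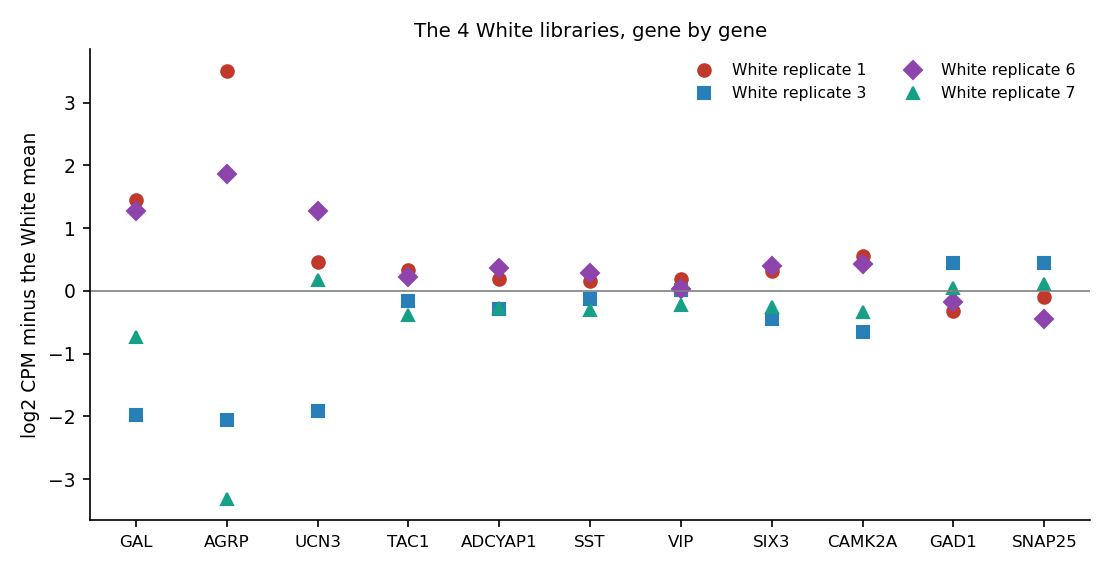
Difference of log2 CPM from the White mean in each of the 4 White libraries (markers) for GAL, 6 other neuropeptide genes, SIX3, CAMK2A, GAD1 and SNAP25. GAL lies 1.45 and 1.27 above its mean in replicates 1 and 6 and 1.98 and 0.74 below it in replicates 3 and 7. The other peptide genes keep replicates 1 and 6 on top. Distances are larger than those of GAL for AGRP and smaller for SST, VIP, ADCYAP1 and TAC1. UCN3 lies 0.47, 1.27 and 0.18 above its mean in replicates 1, 6 and 7 and 1.92 below it in replicate 3. GAD1 and SNAP25 are highest in replicate 3.

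Across all 15 libraries, log2 CPM of GAL was correlated with that of the 6 other peptide genes. These genes have a symbol here only because the study lists them, like GAL, as changed between regimes in these libraries, so a shared difference between regimes was part of how they came to be named, and the values over 15 libraries are not independent evidence of a relation. Relations were computed with 10474 genes, and p-values were adjusted over all of them. At a padj under 0.05 from 100000 permutations, 0.411% of genes were higher and 0.172% were lower with GAL. Genes with a symbol passed more often, 34 of 567 in either direction, and the peptide genes come from these. For UCN3, r was 0.88 (permutation p = 5e-05, padj = 0.0349) and Spearman's rho was 0.76 (permutation p = 0.00158, padj = 0.179). For SST, r was 0.81 (permutation p = 0.00019, padj = 0.0419) and rho was 0.75 (permutation p = 0.00168, padj = 0.179). For TAC1, r was 0.79 (permutation p = 0.00027, padj = 0.0479) and rho was 0.70 (permutation p = 0.00506, padj = 0.226). These 3 passed the threshold of 0.05 narrowly by r and did not pass it by rho, by which 3 of the 10474 genes passed. With single libraries left out, the padj of UCN3 passed in 9 of 15 cases and was lost without Control replicate 4, 5, 6 or 8 or White replicate 3 or 7. That of SST passed in 3 cases (without Control replicate 4, White replicate 1 or White replicate 6), and that of TAC1 in 1 (without Green replicate 9), while r itself stayed between 0.74 and 0.90 for the 3 genes.

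ADCYAP1 had an r of 0.75 with GAL (permutation p = 0.00182, padj = 0.0883) and a rho of 0.77 (permutation p = 0.001, padj = 0.163), and its r passed the padj threshold only without Control replicate 4 (r = 0.91, padj = 0.0299). AGRP had an r of 0.65 (permutation p = 0.0067, padj = 0.134) and a rho of 0.63 (permutation p = 0.0134, padj = 0.274). VIP had an r of 0.55 (permutation p = 0.0379, padj = 0.232) and a rho of 0.53 (permutation p = 0.0461, padj = 0.357). The libraries farthest from the median of GAL were Control replicate 8 and White replicate 3. Without both, r was 0.83 for UCN3, 0.82 for SST, 0.75 for TAC1, 0.78 for ADCYAP1, 0.73 for AGRP and 0.60 for VIP.

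The relation over 15 libraries includes the difference between regimes, in which Control had the lowest mean for GAL and for each of the 6 other peptide genes. After each regime's mean was subtracted, r was 0.78 for UCN3 (exact permutation p = 0.0375, padj = 0.612), 0.74 for TAC1 (exact permutation p = 0.0517, padj = 0.621) and 0.63 for SST (exact permutation p = 0.118, padj = 0.664). It was 0.50 for ADCYAP1, 0.46 for AGRP and 0.16 for VIP, with padj from 0.689 to 0.925 and exact permutation p from 0.157 to 0.708. Within regimes 0% of genes were higher and 0% lower with GAL at a padj under 0.05, while 853 genes had an unadjusted exact p under 0.05 and the smallest padj was 0.227. Without Control replicate 8 and White replicate 3, the within-regime r was 0.54 for UCN3, 0.82 for TAC1 and 0.66 for SST. The chicks that carry these values are mostly those of Control and White, because GAL hardly varied in Green and G3D.

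GAL also left a gap in the order of the libraries. The 6 lowest libraries (4 Control and White replicates 3 and 7) ended at 42.5 CPM, and the 9 highest (7 GMI and White replicates 1 and 6) began at 90.8 CPM, a step of 1.09 log2 units that was exceeded only by the step of 1.14 between Control replicate 8 and White replicate 3.

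**Figure D5:**
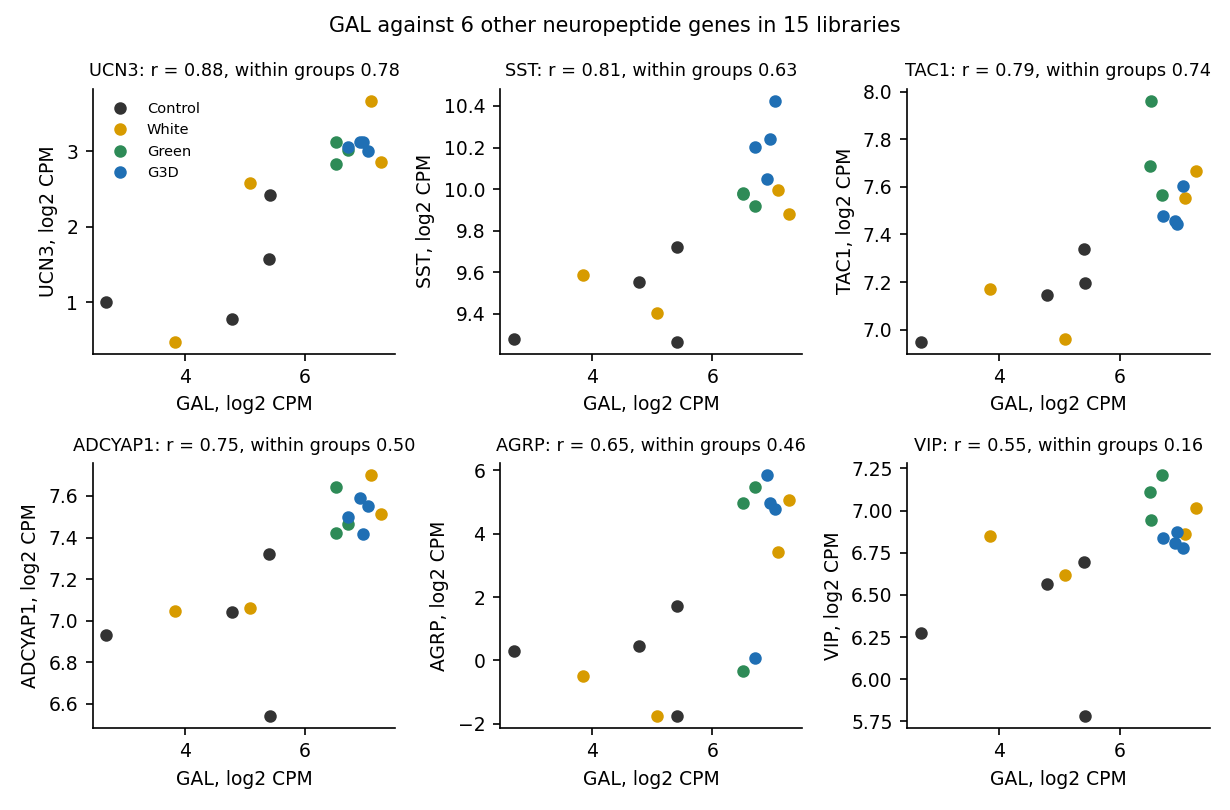
Log2 CPM of 6 other neuropeptide genes (vertical axes) against log2 CPM of GAL (horizontal axes) in 15 libraries, coloured by lighting regime, with r over all libraries and within groups above each panel. White libraries 1 and 6 sit with the Green and G3D libraries at high GAL and White libraries 3 and 7 sit with Control at low GAL, and r runs from 0.88 for UCN3 to 0.55 for VIP.

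Between regimes, the other peptide genes were compared in the same edgeR fit. SST passed the padj threshold in G3D against Control, with a log2 fold change of 0.77 (SE 0.13, edgeR padj = 0.0249), and in G3D against White, with 0.50 (SE 0.13, edgeR padj = 0.0339). Of the 6 peptide genes, which have a symbol only because the study lists them as changed, SST was the only one that passed in any comparison. Of all genes tested, 0.0955% passed in G3D against Control and 4.17% in G3D against White, and GAL passed in neither. Like GAL, SST was not called in White or Green against Control. UCN3, from 8 to 67 counts per library, stood at 2.72 ± 1.66 CPM in Control, 6.54 ± 4.66 in White, 7.69 ± 0.815 in Green and 8.13 ± 0.338 in G3D (SD, n = 4, 4, 3 and 4). Its order of regimes was that of GAL, and its log2 fold change in G3D against Control was 1.54 (SE 0.48, edgeR padj = 0.167). For TAC1 the mean was 143 ± 15.9 CPM in Control, 165 ± 36.7 in White, 215 ± 30.9 in Green and 180 ± 9.41 in G3D, so that Green and not G3D was highest, with a log2 fold change of 0.58 against Control (SE 0.15, edgeR padj = 0.36). AGRP had the largest fold changes of the peptide genes, 4.48 on the log2 scale in G3D against Control (SE 1.73, edgeR padj = 0.256), but Green replicate 2 and G3D replicate 7 held it at 0.505 and 0.764 CPM, inside the Control range, while GAL was high in both of these chicks. High GAL thus occurred with AGRP near 0.

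Other listed genes of peptide secretion were few. Of 13 genes of peptide processing and dense-core granules, 2 had an identifier, and of 5 genes of the galanin system GAL was the only one, so that galanin receptors are not analysed here. CPE, which encodes a carboxypeptidase that trims peptide precursors, had an r of -0.39 with GAL over 15 libraries and -0.13 within regimes, and SCG3, a secretogranin of granules, had -0.53 and -0.23. Neither rose with GAL. The genes of this paragraph, like the peptide genes, have a symbol only because the study lists them as changed between regimes. Their r over 15 libraries is therefore not independent evidence of a relation. CAMK2A, the only gene with an identifier among 19 listed as CREB-linked or activity-dependent, had an r of 0.83 with GAL (permutation padj = 0.0419). Its rho was 0.88 (permutation padj = 0.0838), and its r within regimes was 0.73 (exact permutation padj = 0.653). SIX3 had an r of 0.82 (permutation padj = 0.0419), a rho of 0.67 (permutation padj = 0.244) and an r of 0.62 within regimes (exact permutation padj = 0.693). Its mean was 127 ± 11.7 CPM in Control and 216 ± 26.5 in G3D (SD, n = 4 each, log2 fold change 0.76, SE 0.16, edgeR padj = 0.0737, not past the threshold). GAD1, GAD2 and SNAP25 had r of -0.61, -0.45 and -0.63 with GAL, and -0.49, -0.01 and -0.54 within regimes. Without Control replicate 8 and White replicate 3, the within-regime r was -0.22, -0.18 and -0.27. In G3D against White their log2 fold changes were -0.84 (SE 0.22, edgeR padj = 0.0437), -0.92 (SE 0.27, edgeR padj = 0.0542) and -0.53 (SE 0.17, edgeR padj = 0.0764). Of all genes tested, 4.17% passed the threshold in that comparison. Against Control, G3D gave -0.56, -0.93 and -0.41 (edgeR padj = 0.253, 0.154 and 0.264). The part of the neuronal share in the level of GAL between regimes was not tested.

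Markers of neighbouring tissue were followed beside GAL. COL1A2 and FMOD, matrix genes of vessels and meninges, were 2 of 9 on their list with an identifier, and COL1A2 was 1.09 higher on the log2 scale in G3D than in Control (SE 0.19, edgeR padj = 0.0249), with FMOD at 1.01 (SE 0.28, edgeR padj = 0.153). In G3D against White both passed the threshold, COL1A2 at 1.13 (SE 0.19, edgeR padj = 0.00841) and FMOD at 1.34 (SE 0.29, edgeR padj = 0.0205). Of all genes tested, 0.0955% passed in G3D against Control and 4.17% in G3D against White. The markers named here have a symbol only because the study lists them as changed between regimes in these libraries, which favours such calls. COL1A2 and FMOD had r of 0.44 and 0.25 with GAL over 15 libraries and -0.16 and -0.15 within regimes. EMX2, a telencephalic gene and 1 of 6 on its list, ranged from 19.7 to 50.5 CPM with an r of 0.33 over 15 libraries and -0.35 within regimes. It was 0.77 higher on the log2 scale in G3D than in White (SE 0.18, edgeR padj = 0.0225), and its value in G3D against Control was 0.66 (SE 0.18, edgeR padj = 0.134). CFAP45, a gene of motile cilia and 1 of 5 for choroid plexus and ependyma, ranged from 13.9 to 35.0 CPM with an r of 0.55 and 0.17 and did not pass the threshold, at 0.95 in Green against Control (SE 0.24, edgeR padj = 0.324) and 0.65 in G3D against Control (SE 0.22, edgeR padj = 0.193). Within White the 4 markers were ordered differently from each other. CFAP45 stood at 24.2 and 25.6 CPM in replicates 1 and 6 against 20.6 in replicate 3 and less in replicate 7, with the high-GAL pair on top, and EMX2 stood at 23.7 and 19.7 CPM against 26.6 and 28.1, with that pair below. COL1A2 stood at 34.5 and 31.4 CPM against 33.5 and 29.6, and FMOD at 14.2 and 15.1 against 24.3 and 12.5, with the pairs overlapping. The part of neighbouring tissue in the level of GAL, between regimes and within White, was not tested.

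The genes with a pattern most like that of GAL were ranked by r among the 567 other genes with a symbol, which the study listed as changed between regimes and which therefore favour a difference between regimes. Highest over 15 libraries were SEMA4B, a membrane-bound semaphorin, with r = 0.92 (rho = 0.87, 0.86 within regimes), UCN3, GAP43, a protein of growing axons, with r = 0.88 (0.80 within regimes), NANOS1, an RNA-binding repressor of translation, with r = 0.86 (0.90 within regimes), and NCALD, a neuronal calcium sensor, with r = 0.85 (0.71 within regimes). SEMA4B in White stood at 185, 121, 171 and 132 CPM in replicates 1, 3, 6 and 7, the order of GAL. GAP43 stood at 893, 692, 969 and 724 CPM in these libraries, with the same high pair. Both genes varied far less than GAL in White.

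Lowest over 15 libraries was APOH, known as a phospholipid-binding plasma protein, with r = -0.90 (rho = -0.90, -0.84 within regimes). APOH stood at 6.98, 19.7, 8.28 and 23.7 CPM in White replicates 1, 3, 6 and 7, at 12.9 to 28.7 CPM in Control, at 9.34 to 12.8 CPM in Green and at 8.19 to 11.7 CPM in G3D. It was thus at or below 12.8 CPM in each of the 9 libraries with high GAL, and White replicates 3 and 7 stood inside the Control range for APOH as for GAL. NINJ2, an adhesion protein, PGRMC1, a haem-binding membrane protein, CLTA, a clathrin light chain, and SMIM15 followed with r between -0.85 and -0.83. Of all 10474 genes, ENSGALG00000026744, which has no symbol here, had the highest r, 0.93 (0.91 within regimes). Without Control replicate 8 and White replicate 3, its r was 0.77 (0.62 within regimes).

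Within regimes, the highest r among genes with a symbol belonged to NANOS1 (0.90), HYOU1 (0.87), SEMA4B (0.86) and KLHDC8B (0.81). The lowest belonged to LGI1 (-0.85), DEGS1 (-0.84), APOH (-0.84), PTN (-0.79) and RRAS2 (-0.79). HYOU1 encodes a chaperone of the endoplasmic reticulum, LGI1 a secreted protein of synapses, DEGS1 an enzyme of ceramide synthesis and PTN a heparin-binding growth factor. These genes were picked for their r, so the values describe likeness and carry no test. Over 15 libraries, NANOS1 fell from an r of 0.86 to 0.66 without Control replicate 8 and White replicate 3, whereas SEMA4B kept 0.89 and APOH -0.90. Without both libraries, the within-regime r was 0.69 for NANOS1, 0.67 for HYOU1, 0.81 for SEMA4B and 0.71 for KLHDC8B. It was -0.71 for LGI1, -0.72 for DEGS1, -0.90 for APOH, -0.30 for PTN and -0.58 for RRAS2.

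VAX1, a homeobox gene of the ventral forebrain, and SCGN, which encodes the calcium-binding protein secretagogin of neuroendocrine cells, were named after their values were seen. VAX1 stood at 5.04, 0.683, 6.09 and 2.05 CPM in White replicates 1, 3, 6 and 7, with the high pair of GAL again on top, and had an r of 0.80 with GAL (0.71 within regimes). SCGN stood at 20.9, 10.7, 19.2 and 18.5 CPM in the same libraries, where replicate 7 was close to replicates 1 and 6. It had an r of 0.83 with GAL (0.68 within regimes). Without Control replicate 8 and White replicate 3, r was 0.65 for SCGN (0.22 within regimes) and 0.79 for VAX1 (0.61 within regimes).

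In RefSeq annotation of a later chicken assembly than that of the counts, the span of GAL lies inside that of 1 other gene, TESMIN, and GAL has 2 transcripts and 2 proteins. Whether the counting used strand is not given in the sources used here, and overlap of exons or 3′ ends was not checked. Whether any counts of GAL came from reads of TESMIN was not tested, and isoforms were not separated.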

How the data were processed

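Per the study's methods and the labels, the authors trimmed reads with cutadapt, mapped them with STAR to 3′ transcript ends of the chicken genome (GRCg6a), flagged duplicates by gene and UMI, and used HTSeq to count reads over genes. The values the authors deposited are whole-number counts per Ensembl gene without normalization. Columns of the authors' own comparisons in a supplementary table were used only to pair identifiers with symbols. The analysis used edgeR 4.0.16 (R 4.3.3): filterByExpr kept 10475 genes, libraries were scaled by TMM, and 1 robust quasi-likelihood fit held all 15 libraries, with Benjamini-Hochberg adjustment at 0.05. Samples were grouped by regime as labelled. DESeq2 1.42.0, limma-voom (limma 3.58.1), other filters and scalings, a replicate block and left-out libraries were alternatives. GAL was correlated (log2 CPM, prior count of 2) with 10474 genes by 100000 permutations, and within regimes by all 82944 permutations. Mean log2 CPM of GAL was compared between regimes by exact permutation tests. The code was tested on simulated data. The genes named are GAL, the listed genes with an identifier, and the 5 highest and 5 lowest in r among genes with a symbol, of which 1 is not reported here. VAX1, SCGN and the gene without a symbol that had the highest r were added after their values were seen (CRYM, r = 0.79 and 0.72 within regimes, likewise). Without Control replicate 8 and White replicate 3, the values of CRYM were 0.57 and 0.44. GAL, the lists and the tests were chosen with earlier results of these data known, the spread of GAL in White among them. Marker lists with no identifier (pituitary, thalamus and midbrain, blood, astrocyte, oligodendrocyte, microglia) gave no value.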

Additional observations from a re-analysis of the deposited data

How the results depend on the processing

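GAL passed the padj threshold of 0.05 in no comparison under any setting tried, and in White, Green and G3D against Control it kept its direction in all 23 alternatives each. With single libraries left out, its log2 fold change ranged from 1.01 to 1.84 in White, from 1.34 to 1.91 in Green and from 1.69 to 2.25 in G3D, each against Control, from 0.30 to 0.41 in G3D against Green, from -0.17 to 0.67 in Green against White and from 0.17 to 1.01 in G3D against White. Over the settings other than the block below, padj in G3D against Control lay between 0.0626 (DESeq2) and 0.307 and, with single libraries left out, between 0.146 and 0.39. With limma-voom, GAL moved from 1.48 to 0.99 in White against Control, from 0.19 to 0.93 in Green against White and from 0.53 to 1.27 in G3D against White. What the replicate numbers stand for is not given. Deviations of same-numbered libraries had r from -0.10 to 0.12 over 8 pairs. Libraries of different numbers were not set beside these, so whether the numbers pair the samples was not tested. With the replicate number as a block, GAL turned to -0.52 in G3D against Green (edgeR padj = 0.9998), and it was 1.72, 2.53 and 2.01 in White, Green and G3D against Control (edgeR padj = 0.623, 0.9999 and 0.442), 0.81 in Green against White and 0.29 in G3D against White, none of them past the threshold. The number of genes called in G3D against Control, 10, was 224 with DESeq2, 4 with limma-voom, 30 with all genes that had at least 1 count, 3 with the block and 1 to 221 with single libraries left out (221 without G3D replicate 5, 1 without G3D replicate 7, Control replicate 6 or Control replicate 8). In White against Control, 0 became 8 with DESeq2, 1 with all genes that had at least 1 count and 4 with the block, and in Green against Control 22, 3 and 0, with 1 when only the 2 regimes were fitted, while G3D against Green went from 0 to 2 with DESeq2. Under scaling by library totals alone, SST (r = 0.80, permutation padj = 0.0618) and TAC1 (r = 0.78, permutation padj = 0.0724) no longer passed the threshold for their relation with GAL over 15 libraries. The SD of GAL log2 CPM fell to 0.36 in Control without replicate 8, to 0.00389 in Green without replicate 7 and to 0.0664 in G3D without replicate 7. Groups of 3 or 4 chicks limit all of these values.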
